A study of Mus musculus with 4 samples.

Results

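Supporting cells are the non-sensory epithelial cells that surround and hold the hair cells of the organ of Corti. The 10 genes described here are regulators and markers of these cells, taken by symbol from a given list: Sox2, Prox1, Gata2, Fgfr3, Lgr5, Lgr6, Cdkn1b, Emilin2, Bace2 and Fbxo2. All 10 were found among the 37239 gene identifiers of the deposited tables, and all 10 passed the filter on low values (at least 1 CPM in at least 2 libraries). They were measured by RNA-seq in whole cochleae of mice at postnatal day 8, in 2 genotypes with 2 libraries each. The mutant mice were homozygous for cello (Ikzf2 cello/cello), a mutant allele of Ikzf2, which encodes helios, a transcription factor with zinc fingers that outer hair cells express. They were compared with wild-type littermates (Ikzf2+/+). The labels name biological duplicates without the number of animals in each library. The p-values therefore set the difference between genotypes against the spread between libraries of the same genotype. The sources used here do not give the strain, the sex or any other allele that the groups share.

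During development the transcription factor Sox2 marks the prosensory domain from which both hair cells and supporting cells arise, and it stays on in supporting cells after hair cells have switched it off. Signals between the cells then sort supporting cells into types. FGF from inner hair cells acts on Fgfr3 in the neighbouring precursors of pillar cells and Deiters' cells, Prox1 is kept in the same cells, and the cyclin-dependent kinase inhibitor Cdkn1b holds them out of the cell cycle. Lgr5 and Lgr6 are receptors for R-spondins, which strengthen Wnt signalling, and in the newborn mouse they mark supporting cells that can still divide or form new hair cells.

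The cello libraries held 42450937 and 47463910 counted alignments and the wild-type libraries 49719984 and 42152616, of which 70.0% to 72.8% lay in annotated genes. The 10 genes were counted with 480 to 62103 reads per library. Epithelial, hair cell, neuronal, glial, bone and cartilage markers were all detected. Values are CPM, read counts scaled to the total of counted alignments, and fold changes compare log2(CPM + 0.5) of cello with that of wild-type, positive where cello is higher. Ikzf2 itself stood at 17.7 and 16.9 CPM in cello and 22.9 and 18.5 CPM in wild-type. Cello alters the encoded protein, so this level does not check the genotype labels. Libraries of the same genotype differed in tissue markers. The summed CPM of 5 bone markers was 1976 and 438 in cello, against 844 and 865 in wild-type. That of 6 neuronal markers was 131 and 421 in wild-type, against 542 and 660 in cello.

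No single supporting cell gene passed the test. Of these genes 7 did not overlap between genotypes: Fgfr3, Lgr6, Bace2, Fbxo2 and Gata2 were lower in both cello libraries than in both wild-type libraries, and Prox1 and Lgr5 were higher in both. Sox2, Emilin2 and Cdkn1b overlapped. By limma 0 of the 10 genes, and 0% of all 14721 genes tested, passed an adjusted p of 0.05, and the adjusted p of the 10 genes ran from 0.425 to 0.762. Of them 5 had an unadjusted p under 0.05, namely Bace2, Fgfr3, Fbxo2 and Lgr6 among the lower ones and Prox1 above. Over all genes 10.9% had such a p (1603 genes), 6.47% with lower and 4.42% with higher values in cello. DESeq2, run on the recovered reads, called 0 of the 10 genes and 1.32% of all genes. Non-overlap of 2 against 2 libraries is common in these data: it held for 45.6% of all genes tested, with 28.7% lower in both cello libraries and 16.9% higher in both. A fold change below 0 was found for 8 of the 10 genes and for 56.6% of all genes tested. The median log2 fold change of the 10 genes was -0.29, beside -0.03 over all genes tested. In whole tissue, fewer cells of a type and less RNA per cell cannot be told apart.

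**Figure D1:**
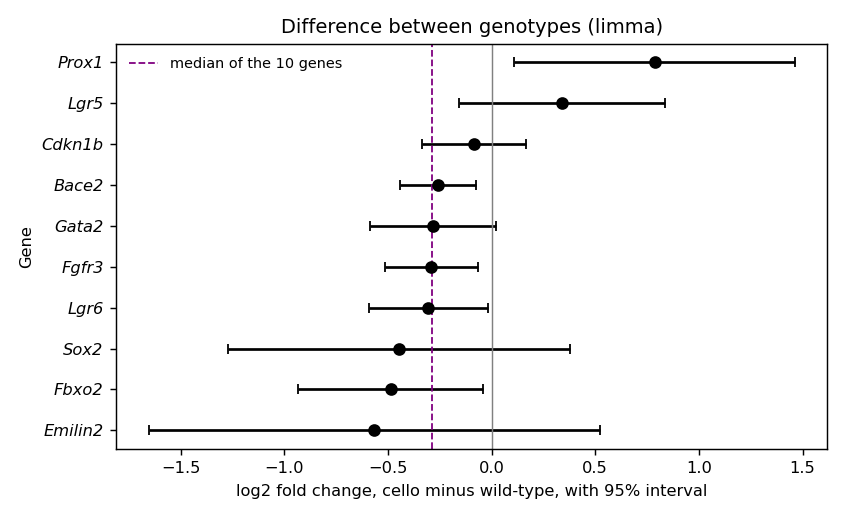
Difference of log2(CPM + 0.5) between genotypes, cello minus wild-type (horizontal axis), as points with 95% intervals from limma, for the 10 genes (vertical axis). Prox1 lies at 0.79 and Lgr5 at 0.34, the other 8 genes lie below 0, and the dashed line marks the median of all 10, -0.29.

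Divided by the length of their annotated exons, the genes spanned a wide range of levels. Fbxo2 averaged 691 CPM per kilobase of exon in cello and 960 in wild-type, and Emilin2 averaged 166 in cello and 225 in wild-type. Cdkn1b came next, with 39.4 CPM per kilobase in cello and 41.7 in wild-type, followed by Gata2, Sox2, Fgfr3 and Bace2 in that order in both genotypes. At the low end stood Lgr6 with 2.87 in cello and 3.58 in wild-type, Lgr5 with 3.86 in cello and 2.98 in wild-type, and Prox1 with 2.57 in cello and 1.47 in wild-type. In wild-type no neighbours in this order overlapped between libraries. In cello the levels of Gata2 and Sox2, of Sox2 and Fgfr3, and of Lgr6 and Prox1 overlapped. Per kilobase, Lgr5 stood above Lgr6 in cello without overlap, where Lgr6 was the higher one in wild-type. That wild-type order rests on the annotated exon lengths, 10264 bases for Lgr5 and 6851 for Lgr6. In CPM Lgr5 was the higher one in wild-type too, at 30.6 and 30.6 against 22.7 and 26.3 for Lgr6.

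**Figure D2:**
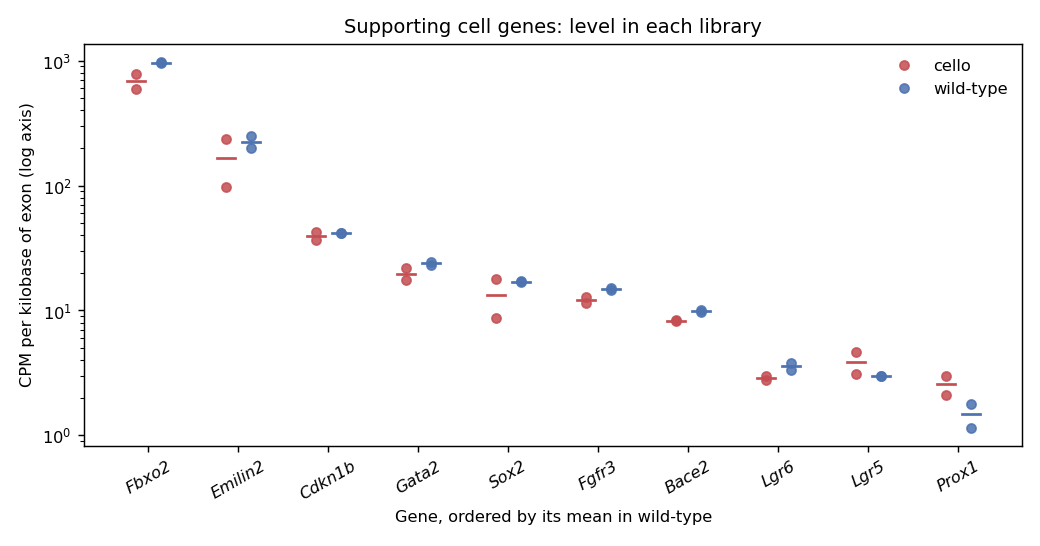
Level of each gene in CPM per kilobase of exon (vertical axis, logarithmic) for the 10 genes ordered by their wild-type mean (horizontal axis). Points are libraries, cello on the left and wild-type on the right of each gene, and short lines are means of 2 libraries; Fbxo2 is highest (691 in cello and 960 in wild-type) and Prox1 lowest (2.57 in cello and 1.47 in wild-type).

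Among the transcription factors, Prox1 had the largest difference. Prox1 is a homeobox factor of pillar and Deiters' cells that lymphatic endothelium also expresses (ENSMUSG00000010175, chromosome 1, 190118035 to 190170714 of GRCm38, minus strand). It stood at 17.7 and 25.3 CPM in cello, against 9.65 and 15.1 CPM in wild-type. Both cello libraries lay above both wild-type libraries, but the spread within each genotype was wide. The ratio of the means was 1.74, with a log2 fold change of 0.79 (SE 0.27, 95% interval 0.11 to 1.46; limma, adjusted p = 0.441). Leaving out wild-type replicate 1 gave 0.48, and leaving out wild-type replicate 2 gave 1.10. The count test DESeq2 gave it an adjusted p of 0.143 and edgeR one of 0.499. The order of the libraries in Prox1 was also that of the summed CPM of 6 neuronal markers. This sum was 542 and 660 in cello and 131 and 421 in wild-type. All 6 were above 0 in fold change and none stood at 0 CPM. Of them 4 were higher in both cello libraries than in both wild-type libraries, as were 16.9% of all genes tested. The other neuronal markers overlapped between genotypes. The order in Prox1 was not that of the summed CPM of 8 Schwann cell and satellite glia markers (8 of 8 above 0). These summed to 4603 and 4214 CPM in cello and 1757 and 2792 in wild-type. By limma 0 genes of these lists passed, and DESeq2 called 3 of the glial markers, Drp2, Egr2 and Ncmap, and 0 of the neuronal ones. The part of nerve tissue in the Prox1 difference was not tested. An antisense gene, Prox1os, shares 133 bases of exon with Prox1 and stood at 0.801 and 1.29 CPM in cello and 0.422 and 0.498 CPM in wild-type. The sources used here do not give the strand setting of the counting, so reads of such partners cannot be told apart.

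Ikaros family proteins such as helios bind DNA through a core of GGGAA, so the promoters of the genes with the largest differences among those that did not overlap, Prox1 and Fbxo2, and of Lgr6, which shares chromosome 1 with Ikzf2, are shown with every GGGAA, on either strand, in capitals. The windows reach from 250 bases before to 50 bases after a RefSeq start on GRCm38.p6 and read 5′ to 3′ in the direction of the gene. They are Prox1 at chr1:190170778-190171077 (minus strand, the outer start) and at chr1:190169466-190169765 (minus strand, the inner start), Lgr6 at chr1:135105227-135105526 (minus strand) and Fbxo2 at chr4:148160418-148160717 (plus strand).
Prox1 outer start: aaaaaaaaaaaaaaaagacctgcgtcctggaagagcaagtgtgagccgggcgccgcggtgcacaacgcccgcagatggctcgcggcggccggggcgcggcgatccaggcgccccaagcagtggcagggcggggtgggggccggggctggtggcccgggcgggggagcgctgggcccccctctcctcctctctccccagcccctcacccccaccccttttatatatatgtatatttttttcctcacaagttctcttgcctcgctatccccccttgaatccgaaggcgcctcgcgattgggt
Prox1 inner start: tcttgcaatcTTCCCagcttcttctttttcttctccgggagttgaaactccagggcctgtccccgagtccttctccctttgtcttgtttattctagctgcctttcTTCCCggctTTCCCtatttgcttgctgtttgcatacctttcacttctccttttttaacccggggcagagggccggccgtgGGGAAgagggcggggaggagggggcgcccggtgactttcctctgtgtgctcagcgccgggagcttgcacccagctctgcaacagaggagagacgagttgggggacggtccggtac
Lgr6: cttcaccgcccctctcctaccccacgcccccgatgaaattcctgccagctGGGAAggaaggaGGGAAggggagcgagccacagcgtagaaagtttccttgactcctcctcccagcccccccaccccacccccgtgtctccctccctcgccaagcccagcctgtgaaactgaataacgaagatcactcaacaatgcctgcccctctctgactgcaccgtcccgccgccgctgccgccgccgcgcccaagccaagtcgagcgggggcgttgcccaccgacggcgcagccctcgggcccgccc
Fbxo2: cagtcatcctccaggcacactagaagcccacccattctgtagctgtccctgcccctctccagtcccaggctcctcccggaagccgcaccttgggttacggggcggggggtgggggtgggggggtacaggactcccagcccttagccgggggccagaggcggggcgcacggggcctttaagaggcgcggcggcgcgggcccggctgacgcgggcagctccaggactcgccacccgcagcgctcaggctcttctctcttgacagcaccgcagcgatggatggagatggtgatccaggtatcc

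The inner window of Prox1 held 4 matches and that of Lgr6 held 2, whereas the outer window of Prox1 and the window of Fbxo2 held 0. RefSeq gave 12 windows for 8 of the 10 genes, and 8 of the 12 held GGGAA. Of all 32851 promoter windows of the same length, 62.7% held it. The longer form TGGGAA, which contains GGGAA, lay in 3 of the 12 windows and in 25.6% of all windows. The SOX core ATTGT, also sought on both strands, lay in 1 of the 12, that of Lgr6, and in 31.0% of all. These letters describe the windows, and whether helios binds there was not measured. Lgr6 lies 65.3 Mb and Prox1 120 Mb from Ikzf2 on chromosome 1.

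Sox2, the HMG-box factor of the prosensory domain (ENSMUSG00000074637, chromosome 3, 34650405 to 34652461, plus strand, a single exon), was level in wild-type and differed between the cello libraries. It stood at 17.9 and 36.5 CPM in cello, against 35.2 and 35.0 CPM in wild-type. Cello replicate 1 was low, and cello replicate 2 was slightly above both wild-type libraries. The log2 fold change of -0.45 (SE 0.32; limma, adjusted p = 0.627) was -0.95 without cello replicate 2 and 0.06 without cello replicate 1. Tectb and Npy, singled out after their values were seen, were likewise lowest in cello replicate 1 and highest in cello replicate 2. Both belong to a list of further supporting cell markers, which did not share this pattern as a whole. The median log2 deviation of that list from the mean over all libraries was -0.103 in cello replicate 1 and -0.086 in cello replicate 2. Within it Otog and S100a1 were higher in cello replicate 1 than in cello replicate 2, whereas Lfng was lower. Tectb, the gene of the tectorial membrane protein beta-tectorin, stood at 748 and 2633 CPM in cello and 2474 and 2594 CPM in wild-type. Npy, a neuropeptide gene, stood at 1.51 and 9.90 CPM in cello and 7.28 and 7.33 CPM in wild-type. The noncoding gene Sox2ot, which spans Sox2 on the same strand without sharing an annotated exon base with it, stood at 2.43 and 3.10 CPM in cello and 2.21 and 1.68 CPM in wild-type.

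Gata2 is a zinc finger factor that haematopoietic progenitors, mast cells and endothelium also express (ENSMUSG00000015053, chromosome 6, 88193891 to 88207032, plus strand). It stood at 95.1 and 117 CPM in cello, against 125 and 132 CPM in wild-type. Both cello libraries were lower, and the gap within cello was wider than the gap between cello replicate 2 and wild-type replicate 1. Its log2 fold change was -0.28 (SE 0.12; limma, adjusted p = 0.473), and it was -0.13 without cello replicate 1 and -0.43 without cello replicate 2. Of 5 mast cell and erythroid progenitor markers tested, 3 were below 0, and all 6 listed summed to 34.0 and 26.6 CPM in cello and 28.0 and 32.6 CPM in wild-type. The 4 endothelial markers summed to 174 and 112 CPM in cello and 126 and 125 CPM in wild-type, all 4 above 0 in fold change.

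**Figure D3:**
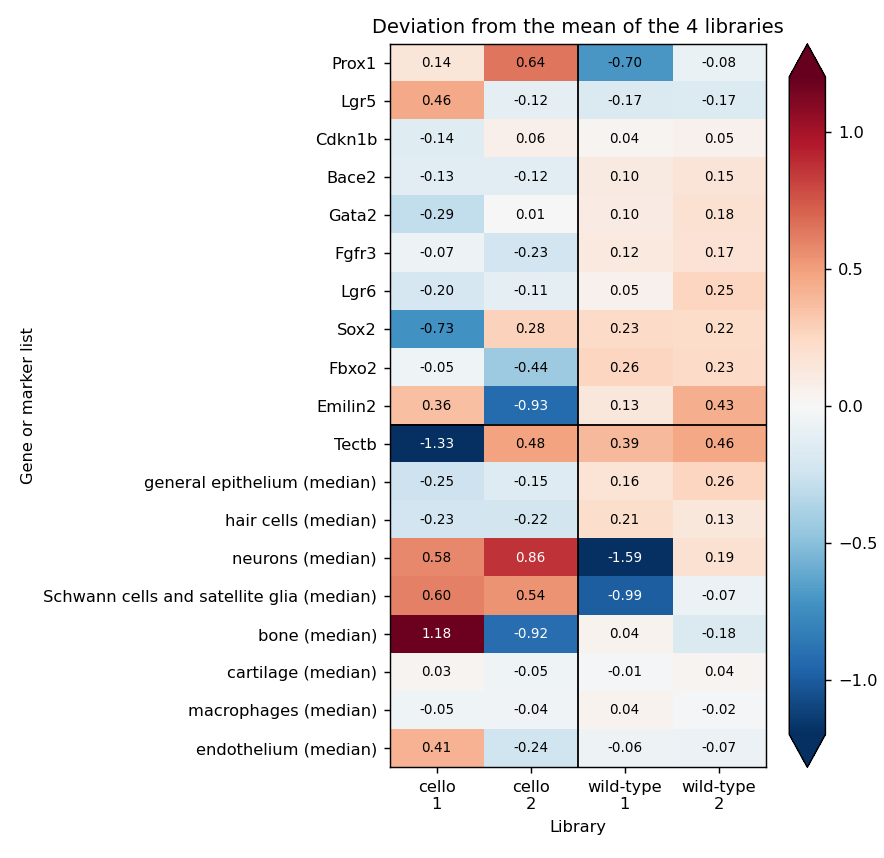
Deviation of each library (columns) from the 4-library mean of log2(CPM + 0.5), for the 10 genes, for Tectb and for the median of 8 marker lists (rows); the colour scale ends at 1.2 in each direction and each number is printed. Sox2 is low in cello replicate 1 alone (-0.73), Emilin2 in cello replicate 2 alone (-0.93), and Prox1 is lowest in wild-type replicate 1 (-0.70), where the neuronal markers are also lowest (-1.59).

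Of the receptors, Fgfr3 was lower by a small amount and with little spread. Fgfr3 receives FGF in pillar and Deiters' cell precursors and is also a receptor of cartilage (ENSMUSG00000054252, chromosome 5, 33721674 to 33737068, plus strand). It stood at 91.8 and 82.1 CPM in cello, against 104 and 108 CPM in wild-type. The ratio of the means was 0.818 and the log2 fold change -0.29 (SE 0.09, 95% interval -0.51 to -0.07; limma, adjusted p = 0.429). Without 1 library at a time it ran from -0.37 to -0.21. The 5 cartilage markers summed to 10747 and 9231 CPM in cello and 9511 and 9653 CPM in wild-type, with 3 of 5 below 0 in fold change. A transcript annotated on the other strand, G630022F23Rik, covers 13.9% of the exon bases of Fgfr3, and stood below 1 CPM in every library.

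Fgfr1, a receptor of many cochlear cells that acts earlier in the prosensory domain, differed in the other direction. It stood at 197 and 190 CPM in cello, against 161 and 154 CPM in wild-type (log2 fold change 0.30, SE 0.08; limma, adjusted p = 0.421), and DESeq2 gave it an adjusted p of 0.045. The CPM ratio of Fgfr3 to Fgfr1 was 0.466 and 0.433 in cello and 0.650 and 0.703 in wild-type. Fgfrl1, a receptor-like gene without a kinase domain, stood at 70.6 and 73.8 CPM in cello and 89.5 and 98.5 CPM in wild-type (-0.38, adjusted p = 0.419 by limma). Fgfr4 lay at 0.09. Of the 5 FGF ligand genes tested, 4 were above 0 (median 0.32) and 0 passed; Fgf2 (0.47), Fgf9 (0.32) and Fgf8, the ligand made by inner hair cells (-0.36), had the smallest p. Fgf8 stood at 1.39 and 1.33 CPM in cello and 2.03 and 1.73 CPM in wild-type. Fgf3 and Fgf20 were too low to be tested. The 8 feedback and target genes of FGF signalling were split, with 4 below and 4 above 0, 0 passing and a median of -0.02. Those with the smallest p were Etv5 (-0.18), Spry2 (-0.16) and Spred2 (-0.13).

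The R-spondin receptors Lgr5 and Lgr6 differed in opposite directions. Lgr5 (ENSMUSG00000020140, chromosome 10, 115450311 to 115587780, minus strand) stood at 47.5 and 31.7 CPM in cello, against 30.6 and 30.6 CPM in wild-type. Cello replicate 1 was high and cello replicate 2 lay close to wild-type. The log2 fold change of 0.34 (SE 0.20; limma, adjusted p = 0.555) was 0.05 without cello replicate 1 and 0.63 without cello replicate 2. Lgr6 (ENSMUSG00000042793, chromosome 1, 134983301 to 135105276, minus strand) stood at 19.1 and 20.3 CPM in cello, against 22.7 and 26.3 CPM in wild-type. Both cello libraries were lower, with a log2 fold change of -0.31 (SE 0.11; limma, adjusted p = 0.450) that ran from -0.41 to -0.20 when each library was left out in turn. The CPM ratio of Lgr5 to Lgr6 within a library was 2.49 and 1.56 in cello and 1.35 and 1.17 in wild-type. With Lgr5 higher and Lgr6 lower in both cello libraries, this ratio could not overlap between genotypes, so it is no separate result.

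Around these receptors, 8 of the 11 genes tested among R-spondins, Lgr4 and genes of Wnt feedback were below 0, with a median of -0.21 and 0 passing by limma or DESeq2. Rnf43, a ligase that removes Wnt receptors and is itself held back by R-spondin and its receptors, stood at 45.3 and 43.1 CPM in cello and 55.1 and 56.1 CPM in wild-type (-0.33). The Wnt feedback inhibitor Nkd1 (-0.33) and the ligand gene Rspo3 (-0.41) were also among those with the smallest p (limma, adjusted p = 0.419 for each of the 3 genes). Lgr4, the more widely expressed relative, stood at 79.9 and 87.3 CPM in cello and 75.8 and 75.8 CPM in wild-type.

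Cdkn1b, the inhibitor that marks the exit of supporting cells from the cell cycle and is expressed in many tissues (ENSMUSG00000003031, chromosome 6, 134920401 to 134925513, plus strand), had the smallest difference of the 10 genes. It stood at 167 and 192 CPM in cello, against 189 and 191 CPM in wild-type. Cello replicate 1 was lower and cello replicate 2 was level with wild-type. The 95% interval of the log2 fold change of -0.09 ran from -0.33 to 0.16 (limma, adjusted p = 0.762), and without cello replicate 1 the value was 0.02. Of 13 tested genes among other inhibitors and partners of Cdkn1b in cell cycle exit, 10 were below 0 and 0 passed (median -0.05). Those with the smallest p were Ccnd3, a cyclin gene (-0.29), Cdkn1c, an inhibitor of the same family (-0.30), and Rb1, the retinoblastoma gene (0.14). Cdkn2a stood at 0 reads in both cello libraries and at 2 and 3 reads in wild-type, and was too low to be tested.

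The genes of the matrix, of proteolysis and of protein turnover complete the set. Fbxo2 encodes an F-box protein that recognises glycoproteins for degradation and is highly abundant in supporting cells (ENSMUSG00000041556, chromosome 4, 148160621 to 148166424, plus strand). It stood at 1010 and 770.0 CPM in cello, against 1249 and 1225 CPM in wild-type. Both cello libraries were lower, and they differed from each other by more than the wild-type libraries did. The ratio of the means was 0.720, with a log2 fold change of -0.49 (SE 0.18, 95% interval -0.93 to -0.04; limma, adjusted p = 0.442). It was -0.68 without cello replicate 1 and -0.29 without cello replicate 2. DESeq2 gave an adjusted p of 0.174. Its relatives Fbxo44 (-0.24) and Fbxo6 (-0.23) were below 0 and did not pass.

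Bace2, a membrane-bound aspartic protease related to beta-secretase (ENSMUSG00000040605, chromosome 16, 97356742 to 97442936, plus strand), had the smallest unadjusted p of the 10 genes. It stood at 65.3 and 65.7 CPM in cello, against 77.1 and 79.8 CPM in wild-type. The libraries of each genotype lay close together and did not overlap with the other. The ratio of the means was 0.835 and the log2 fold change -0.26 (SE 0.07; limma, adjusted p = 0.425), from -0.28 to -0.23 without 1 library at a time. Its relative Bace1 stood at 77.2 and 78.9 CPM in cello and 74.8 and 77.7 CPM in wild-type.

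Emilin2, an extracellular matrix glycoprotein of elastic fibres that is also found in the basilar membrane (ENSMUSG00000024053, chromosome 17, 71252172 to 71311978, minus strand), was abundant and varied most. It stood at 1296 and 532 CPM in cello, against 1109 and 1365 CPM in wild-type. Cello replicate 2 was low, whereas cello replicate 1 lay between the wild-type libraries. The log2 fold change of -0.57 (SE 0.43; limma, adjusted p = 0.638) was -1.21 without cello replicate 1 and 0.08 without cello replicate 2. Emilin2 was thus low in the cello library in which Sox2 was not. Its relative Emilin3 stood at 44.9 and 48.1 CPM in cello and 59.0 and 70.6 CPM in wild-type (-0.47; limma, adjusted p = 0.419), while Emilin1 lay at -0.10. Of the 10 relatives of these genes that were tested, 7 were below 0 and 0 passed (median -0.19).

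General epithelial markers did not pass the test either. All 10 had a log2 fold change below 0, with a median of -0.39, and their summed CPM was 733 and 789 in cello, against 928 and 999 in wild-type; Rab25 (-0.50), Epcam (-0.47) and Esrp1 (-0.38) had the smallest p. By limma 0 of the 10 passed, and DESeq2 called 1, Epcam (adjusted p = 0.00438). When each supporting cell gene was divided by this sum within its library, Fgfr3, Lgr6, Gata2 and Fbxo2 overlapped between genotypes. Fgfr3 came to 12.5% and 10.4% of the epithelial sum in cello and 11.2% and 10.8% in wild-type. Fbxo2 came to 138% and 97.6% in cello and 135% and 123% in wild-type. Bace2, lower in CPM, came to 8.91% and 8.33% in cello and 8.30% and 7.99% in wild-type, and Cdkn1b to 22.7% and 24.4% in cello and 20.4% and 19.1% in wild-type. Prox1 stayed higher, with 2.42% and 3.21% in cello and 1.04% and 1.51% in wild-type, as did Lgr5, with 6.47% and 4.02% in cello and 3.29% and 3.06% in wild-type. On this ratio 72.8% of all genes tested were higher in both cello libraries and 2.02% were lower in both, so non-overlap upwards is the common case. Supporting cells are themselves epithelial, and the part of the epithelial share in these differences was not tested.

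**Figure D4:**
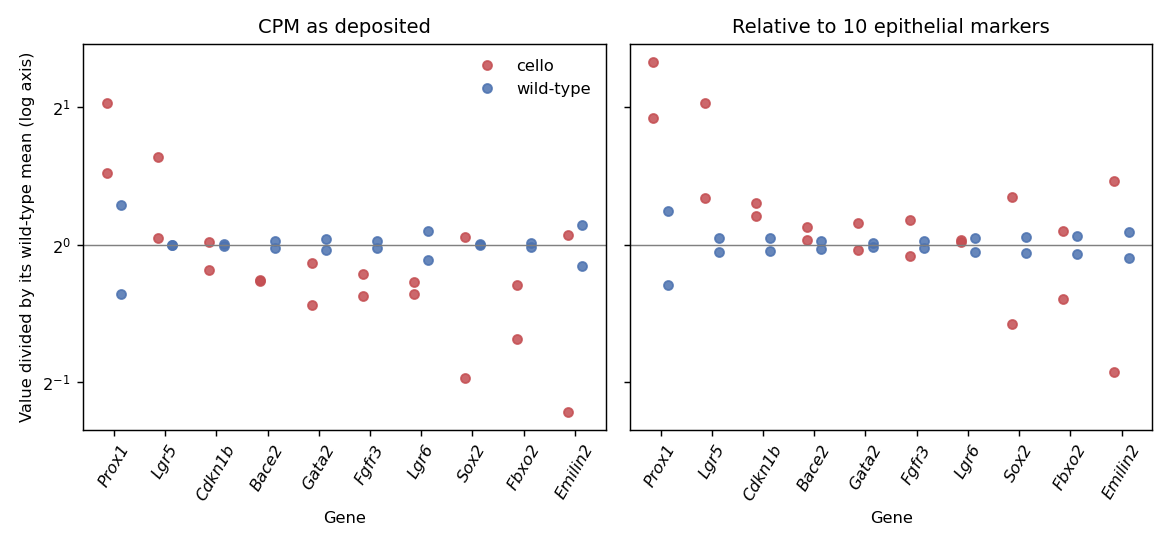
Each library's value divided by the wild-type mean of the gene (vertical axis, logarithmic to base 2) for the 10 genes (horizontal axis), as deposited CPM in the left panel and as a ratio to the summed CPM of 10 epithelial markers of the same library in the right panel; points are libraries, cello left of wild-type. Fgfr3, Lgr6, Gata2 and Fbxo2 lie below wild-type in the left panel and overlap with it in the right panel, where the ratios of the means are 1.04, 1.02, 1.04 and 0.915.

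Further supporting cell markers were also measured. Of 17 tested, 14 were below 0, with a median of -0.21, and 0 passed by limma. In both cello libraries 7 were lower and 1 was higher than in both wild-type libraries. Over all genes tested, 56.6% were below 0, 28.7% were lower in both cello libraries and 16.9% were higher in both. Otog, the gene of the tectorial membrane protein otogelin, stood at 155 and 144 CPM in cello and 217 and 240 CPM in wild-type (-0.61, adjusted p = 0.419 by limma), and DESeq2 gave it an adjusted p of 4.7e-04. The Notch modulator Lfng stood at 40.8 and 50.3 CPM in cello and 61.5 and 63.7 CPM in wild-type (-0.46), and the calcium-binding protein gene S100a1 at 272 and 255 CPM in cello and 344 and 306 CPM in wild-type (-0.30). Among 12 tested genes in a list of prosensory genes and Sox partners, 9 were below 0 and 0 passed, with a median of -0.15. The signalling gene Bmp4 (-0.34) and the transcription factor genes Sox9 (-0.28) and Pax2 (-0.44) had the smallest p. The 8 hair cell markers summed to 401 and 378 CPM in cello and 437 and 442 CPM in wild-type, with a median of -0.37 and 6 of 8 below 0. By limma 0 of the 8 passed, and DESeq2 called 2, both lower in cello. Slc26a5, the gene of the outer hair cell motor protein prestin, stood at 9.80 and 9.69 CPM in cello and 20.8 and 24.9 CPM in wild-type (-1.18; DESeq2, adjusted p = 5.4e-07). The hair cell transcription factor gene Pou4f3 stood at 14.5 and 15.3 CPM in cello and 27.2 and 27.8 CPM in wild-type (-0.86; DESeq2, adjusted p = 1.3e-05). The 6 markers of the stria vascularis and its melanocytes were all below 0 (median -0.39), whereas the 5 macrophage markers had a median of -0.07 and 4 fibrocyte markers one of 0.40. The fibrocyte markers summed to 3430 and 1464 CPM in cello and 1832 and 1602 CPM in wild-type, so that cello replicate 1 alone was high; 0 genes of these 3 lists passed by limma. DESeq2 called 3 of the 6 stria and melanocyte markers (Tyr, Dct and Kcne1) and 1 of the 4 fibrocyte markers (Cldn11), each lower in cello, and 0 of the 5 macrophage markers.

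**Figure D5:**
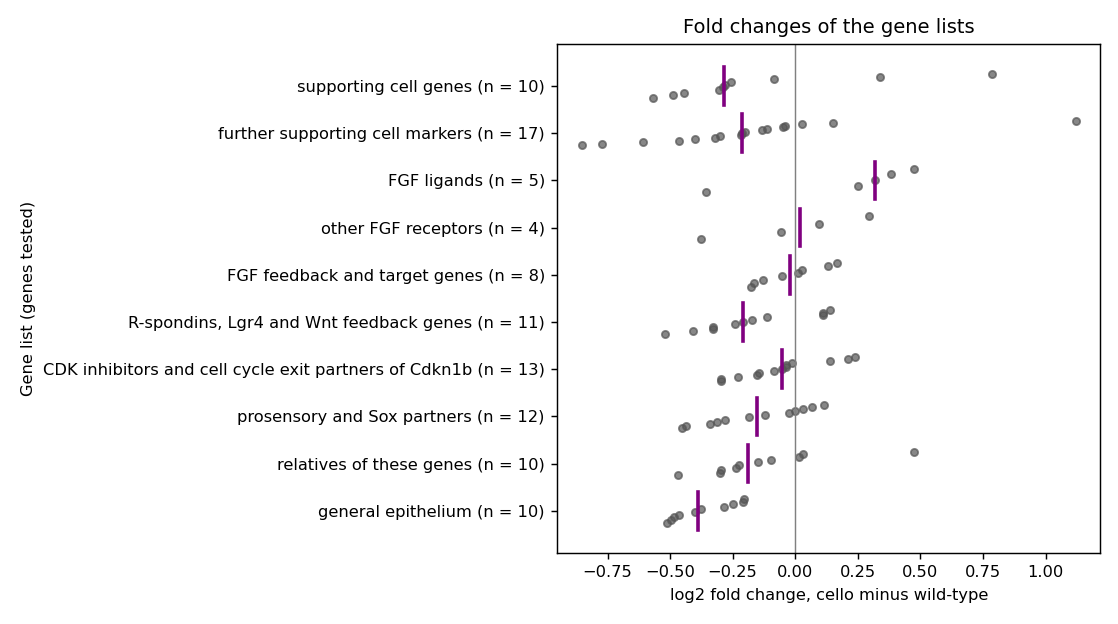
Log2 fold change, cello minus wild-type (horizontal axis), of each tested gene (points) in each gene list (vertical axis, with the number of genes tested), with the median of the list as a vertical bar. The median is -0.29 for the 10 supporting cell genes, -0.21 for further supporting cell markers, 0.32 for FGF ligands and -0.39 for general epithelial markers.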

How the data were processed

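The deposited values are CPM per gene, 1 table per library, made by the authors; per the submitters' processing notes the aligner was TopHat and the build GRCm38. Libraries were prepared with a TruSeq kit, per the labels' protocols. The sources used here do not give the counter, its strand setting or its annotation. The CPM are scaled to every counted alignment, with 5 non-gene entries among them (27.2% to 30.0% of alignments), which were left out of all tests. Whole reads were recovered, since 100% of the values were whole multiples of the smallest (tolerance 0.001 of a read).

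Symbols and positions were found for 36504 of 37239 identifiers in GENCODE M21, on the same build. The 14721 genes that reached 1 CPM in 2 or more libraries were fitted in limma 3.58.1 (R 4.3.3) on log2(CPM + 0.5) by genotype. Tests were two-sided, the variance trend was modelled, and p-values were adjusted over all genes by Benjamini-Hochberg at a threshold of 0.05. With 2 libraries per genotype, exact permutation allows no p under 0.333 and was not used. The recovered reads were tested with edgeR 4.0.16 and DESeq2 1.42.0 as alternatives. DESeq2 gave no adjusted p for 1713 genes. Levels per kilobase use the union of annotated exons. Figures were drawn with matplotlib 3.10.9.

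Always named were the 10 genes and Ikzf2, and from other lists up to 3 genes with the smallest p. Where the rule left them out, Lgr4, Bace1, Emilin1, Tectb, Npy and Dct were added once their values had been seen. So were the overlapping genes Prox1os, Sox2ot and G630022F23Rik and genes too low to test. The genes and lists were chosen with earlier results of these data known.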

Additional observations from a re-analysis of the deposited data

How the results depend on the processing

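For the 10 supporting cell genes, 11 alternatives to the test, the pseudocount, the filter or the scaling and 4 fits that each left out 1 library were run. Without a library left out, all 110 fold changes kept their direction and none passed the threshold. Leaving out 1 library turned 3 of 40: without cello replicate 1, Sox2 was at 0.058 and Cdkn1b at 0.017, and without cello replicate 2, Emilin2 was at 0.075. Over the 4 such fits Sox2 ran from -0.95 to 0.058, Cdkn1b from -0.19 to 0.017 and Emilin2 from -1.21 to 0.075. The cause was not tested. In every fit 0 of the 10 genes passed in either direction. The median of the 10 genes ran from -0.32 to -0.19 without 1 library at a time. Over all genes, DESeq2 called 116 higher and 79 lower in cello, where limma and edgeR called 0, and leaving out 1 library at a time gave 0 to 92 higher genes, the 92 being without wild-type replicate 2. The median of all genes moved from -0.03 to 0.01 under TMM rescaling.

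Equal replicate numbers in the labels were not taken as pairs, since nothing says that a number marks a litter or day. The deviations of same-numbered libraries correlated at 0.13 over genes, and with the replicate block 0 of the 10 genes and 0 of all genes passed. With 2 libraries per genotype, only differences well beyond the spread between libraries can be seen, and a gene that did not pass is not shown to be level.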
